A study of Mus musculus with 8 samples.

Results

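The small nucleolar RNAs (snoRNAs) and small Cajal body RNAs (scaRNAs) of embryonic mouse kidney were taken as every row whose gene symbol begins with Snora, Snord or Scarna followed by a digit. This gave 119 of 24151 genes, each listed in 1 row: 36 H/ACA snoRNAs (Snora), 74 C/D snoRNAs (Snord) and 9 Cajal body RNAs (Scarna). The kidneys came from embryos of ICR mice, an outbred stock, whose mothers were 8 weeks old when mated. In the CPF group the mothers received chlorpyrifos, an organophosphate insecticide, dissolved in DMSO by daily injection under the skin of 5 mg per kg between gestation days 7.5 and 11.5. In the DMSO group they received the same volume of DMSO alone, so the solvent and the injections are common to all libraries. Kidneys were collected at 4 stages 2 days apart, the first at E12.5 and the last at E18.5, with 1 RNA sequencing library for each agent and stage, 4 CPF and 4 DMSO libraries in all. The number of embryos or litters behind each was not given in the sources used here. No replicate of a stage and agent exists, so no difference within 1 stage could be tested.

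Small nucleolar RNAs guide chemical changes of ribosomal RNA in the nucleolus, the site where ribosomes are assembled. C/D snoRNAs, named for their C and D boxes, direct 2′-O-methylation by the protein fibrillarin, and H/ACA snoRNAs direct the conversion of uridine to pseudouridine by dyskerin. Cajal body RNAs do the same for the small nuclear RNAs of the spliceosome. In mammals most of these RNAs are cut out of the introns of host genes, many of which encode ribosomal proteins or ribosome assembly factors, and demand for ribosomes is high in dividing progenitor cells such as those of the early kidney.

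The sequences below, from GENCODE M21 transcripts on GRCm38, are those of members on which the results turn. The first set fell with embryonic day. In the C/D members the capitals mark TGATGA, the usual C box, where it lies in the first 20 bases, and CTGA, the D box, in the last 20 bases. In the H/ACA and Cajal body members they mark ACA in the last 8 bases. Snord73a lies on the minus strand at chr3:86138791-86138858. Snord57 and Snord110 lie on the plus strand at chr2:130278016-130278087 and chr2:130275506-130275573. Snora61 lies on the plus strand at chr4:132310240-132310369.
Snord73a: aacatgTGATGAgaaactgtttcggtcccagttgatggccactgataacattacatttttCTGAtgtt
Snord57: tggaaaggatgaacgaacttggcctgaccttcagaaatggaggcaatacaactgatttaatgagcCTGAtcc
Snord110: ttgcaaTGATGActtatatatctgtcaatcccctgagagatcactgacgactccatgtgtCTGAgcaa
Snora61: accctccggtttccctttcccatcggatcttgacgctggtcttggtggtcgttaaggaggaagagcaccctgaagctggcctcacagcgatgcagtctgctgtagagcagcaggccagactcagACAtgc

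Snord2 and Snora81 are a C/D and an H/ACA member of 1 host gene, Eif4a2, shown because only the first passed the test for a fall. Both lie on the plus strand, at chr16:23108953-23109021 and chr16:23110756-23110933.
Snord2: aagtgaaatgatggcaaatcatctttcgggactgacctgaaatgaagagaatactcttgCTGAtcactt
Snora81: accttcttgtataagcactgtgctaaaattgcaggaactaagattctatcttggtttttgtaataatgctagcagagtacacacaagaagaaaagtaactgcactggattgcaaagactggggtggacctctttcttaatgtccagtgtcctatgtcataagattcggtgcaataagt

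The third set holds abundant members that did not pass that test. Snord15a lies on the minus strand at chr7:99482785-99482932, Snord17 on the minus strand at chr2:144265979-144266216, Snora23 on the plus strand at chr7:110046364-110046547 and Scarna13 on the minus strand at chr12:105031075-105031349.
Snord15a: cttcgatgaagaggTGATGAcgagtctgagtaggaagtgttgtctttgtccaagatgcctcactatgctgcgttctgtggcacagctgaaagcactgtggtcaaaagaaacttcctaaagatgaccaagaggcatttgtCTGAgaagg
Snord17: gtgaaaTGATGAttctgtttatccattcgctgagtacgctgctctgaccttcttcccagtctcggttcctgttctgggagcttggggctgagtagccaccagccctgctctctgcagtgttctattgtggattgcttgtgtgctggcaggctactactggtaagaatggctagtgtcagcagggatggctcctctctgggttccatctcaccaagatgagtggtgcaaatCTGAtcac
Snora23: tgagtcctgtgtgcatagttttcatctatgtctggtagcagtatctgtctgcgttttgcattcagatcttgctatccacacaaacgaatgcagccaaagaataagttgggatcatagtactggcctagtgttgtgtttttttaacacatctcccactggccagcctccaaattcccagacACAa
Scarna13: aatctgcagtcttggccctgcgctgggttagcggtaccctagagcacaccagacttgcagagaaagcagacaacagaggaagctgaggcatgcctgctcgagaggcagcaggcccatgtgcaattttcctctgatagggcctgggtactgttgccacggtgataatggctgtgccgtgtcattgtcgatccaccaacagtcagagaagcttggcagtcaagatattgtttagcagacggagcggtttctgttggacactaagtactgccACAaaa

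Searched on the given strand, CTGA was found in the last 20 bases of 70 of 72 C/D members with an annotated sequence (97.2%), against 29.2% of all 1364 distinct annotated snoRNA transcripts and 9.30% of 2022 miRNA hairpins. TGATGA in the first 20 bases was found in 46 of 72 C/D members (63.9%), 15.0% of all snoRNA transcripts and 0.198% of hairpins. ACA in the last 8 bases was found in 34 of 36 H/ACA members (94.4%), 51.1% of all snoRNA transcripts and 15.0% of hairpins. CTGA in C/D members and ACA in H/ACA members thus went with the symbols in nearly all cases, and 4 of the 9 Cajal body members held both C/D motifs. Both C/D motifs were found in 13 of 24 C/D members that fell and in 24 of 40 that did not pass, with median lengths of 76.5 and 79 bases, given as a description.

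The values are in TPM, which scales each transcript by its length, and sum to 1000000 in each library. From the step between low values, 1 read on a transcript of 1 kb came to between 0.0606 and 0.104 TPM. All members together held 11264 to 23461 reads in the CPF libraries and 16244 to 31708 reads in the DMSO libraries, and 71 members had at least 10 reads in every library. For 13 members the GENCODE entry is at least 1.5 times as long as the RefSeq entry that was quantified. Scarna10, for example, has 71 bases in RefSeq and 325 in GENCODE, so levels of such members beside others are uncertain, while 1 member can be compared between libraries. Of the 119 members, 60 lie in introns of a host gene and 53 overlap an exon of some transcript of the host. A read of the mature RNA cannot be told apart here from a read of the unspliced host, nor can fewer cells of a type be told apart from less RNA per cell.

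Kidney markers were present, with all 13 above 1 TPM in some library and a sum of 467, 502, 535 and 3211 TPM in CPF libraries and 652, 548, 759 and 1017 TPM in DMSO libraries over the 4 stages. The E18.5 CPF library thus stood apart by its kidney markers, and the calls made without the E18.5 pair are given with the slopes. The E14.5 and E16.5 CPF libraries stood apart by genes of other organs. In these the 9 liver markers summed to 4455 and 5096 TPM, against 177 and 804 TPM in the CPF libraries of E12.5 and E18.5 and 13.1 to 881 TPM in DMSO libraries; Ahsg and Serpina1a of that list stayed under 1 TPM throughout. The 6 adrenal cortex markers summed to 670.4 and 669 TPM in the same 2 libraries, against 15.1 to 61.5 TPM in DMSO libraries. The 6 erythroid markers ran with stage, at 36696, 17270, 720.2 and 16.0 TPM in CPF libraries and 8036, 3998, 556 and 44.7 TPM in DMSO libraries over the 4 stages, with Hba-a1 and Alas2 under 1 TPM in each library. The 5 muscle markers did likewise, at 647, 436, 154 and 18.45 TPM in CPF libraries and 192, 197, 61.3 and 5.70 TPM in DMSO libraries, with Tnnt3 under 1 TPM.

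By TPM a few members held a large part of each class, and most of it only among Cajal body RNAs. Scarna10 made up 59.8% of the mean Cajal body TPM, and Scarna10, Scarna2 and Scarna13 together made up 92.3%. These shares depend on the RefSeq lengths, 71 bases for Scarna10 and 61 for Scarna2, against 325 and 414 in GENCODE. Scarna13 has 275 bases in both. The median reads were 2608 for Scarna10, 974 for Scarna2 and 2147 for Scarna13. In humans Scarna10 (U85) guides changes of the U5 small nuclear RNA and Scarna2 those of U2. Snord17 made up 23.4% of the C/D TPM, and Snord17, Snord15a and Snord2 together 36.4%. Snora23, Snora74a and Snora81 held 44.4% of the H/ACA TPM. At the other end 13 members, among them Snord14c, Snord14d and Snord116, were listed at 0 in all 8 libraries. For Snord116l1 and Snord116l2, C/D members of the imprinted Prader-Willi region that are known mainly from brain, 29 further annotated transcripts have the identical sequence, and what a read shared by such copies was given is not known here. The other 106 members, 32 H/ACA, 65 C/D and 9 Cajal body RNAs, all reached 1 TPM in 2 or more libraries, the condition for a test.

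Between E12.5 and E18.5, 31 snoRNAs fell, most of them C/D RNAs, and no member rose by the test. A straight line over embryonic day, with agent as a covariate, was fitted by limma to log2(TPM + 1) of 13677 genes, with p adjusted by Benjamini-Hochberg over all of them and called under 0.05. It called 31 of 106 members lower per day (29.2%), beside 6.72% of all genes tested, and 0 members higher, beside 5.79% of all genes. The 31 were 25 C/D and 6 H/ACA snoRNAs and 0 Cajal body RNAs. Slopes were below 0 in 98 of 106 members and above 0 in 8, beside 37.7% of all genes tested with a slope above 0. The median slope was -0.17 log2 units per day over the members, against -0.03 over all genes tested. By class it was -0.13 for H/ACA, -0.19 for C/D and -0.06 for Cajal body RNAs, the last of which came to 0.00 relative to the total of noncoding transcripts without Rpph1 and Rmrp, the RNA parts of RNase P and RNase MRP; the H/ACA and C/D medians were below 0 on each scale. All 31 had a negative slope in CPF libraries alone and in DMSO libraries alone, as had 80 of all 106 members. The 31 were picked by their slope over these same libraries, which favors such agreement.

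**Figure D1:**
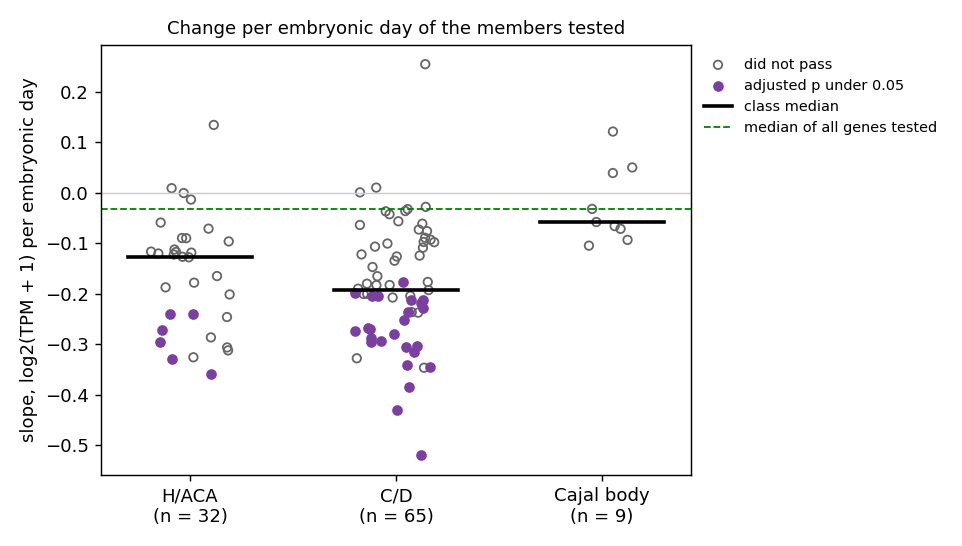
Slopes of the 106 members tested, in log2(TPM + 1) per embryonic day, by class, each point 1 member. Filled points had an adjusted p under 0.05, black bars are class medians (-0.13, -0.19 and -0.06) and the dashed line is the median of all genes tested (-0.03); the filled points are 6 H/ACA and 25 C/D snoRNAs.

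Among the C/D members that fell, Snord73a, which in humans guides methylation of 28S ribosomal RNA and lies in an intron of Rps3a1, had the lowest p. It had 84.3, 51.9, 25.4 and 14.03 TPM in CPF kidneys, against 40.8, 32.3, 20.1 and 9.05 TPM in DMSO kidneys, each in the order E12.5 to E18.5, as in all such values that follow. In each agent the value fell at every step, and the CPF value was the higher one at all 4 stages. Its slope was -0.38 ± 0.04 (SE, adjusted p = 0.00098). Snord55 had 149, 67.1, 31.5 and 23.1 TPM in CPF kidneys, against 117, 62.6, 73.4 and 37.02 TPM in DMSO kidneys. The E12.5 library was the highest and the E18.5 library the lowest in both agents, with a slope of -0.34 ± 0.06 (SE, adjusted p = 0.00549). Snord57, which guides methylation of 18S ribosomal RNA in humans, had the steepest slope, -0.52 ± 0.10 (SE, adjusted p = 0.0125). It had 60.2, 33.3, 5.22 and 11.8 TPM in CPF kidneys, against 37.6, 19.04, 14.1 and 1.96 TPM in DMSO kidneys, with as few as 2 reads in its lowest library. Snord43, from an intron of Rpl3, had 315, 168, 80.97 and 71.1 TPM in CPF kidneys, against 132, 126, 58.7 and 70.98 TPM in DMSO kidneys and a slope of -0.28 ± 0.05 (SE, adjusted p = 0.0106). Snord49b, from the noncoding host 2410006H16Rik, had 47.2, 51.5, 22.2 and 10.1 TPM in CPF kidneys, against 40.2, 31.7, 20.6 and 13.7 TPM in DMSO kidneys, and its slope was -0.31 ± 0.05 (SE, adjusted p = 0.00623). In Snord43 and Snord49b the E12.5 and E14.5 libraries of each agent were above both later ones. Snord88c had 38.9, 19.2, 13.7 and 15.1 TPM in CPF kidneys, against 44.6, 36.7, 25.9 and 10.96 TPM in DMSO kidneys, with a slope of -0.27 ± 0.05 (SE, adjusted p = 0.0124).

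The 6 H/ACA members that fell were Snora61, Snora44, Snora62, Snora75, Snora33 and Snora5c, of which Snora62, Snora75 and Snora5c were named after their values were seen. Snora61 and Snora44 lie in the noncoding host Snhg12. Snora61 had 155, 70.8, 25.2 and 23.97 TPM in CPF kidneys, against 97.6, 134, 51.8 and 41.8 TPM in DMSO kidneys, with a slope of -0.36 ± 0.07 (SE, adjusted p = 0.0109). Snora44 had 50.4, 25.1, 16.1 and 9.003 TPM in CPF kidneys, against 39.5, 39.9, 29.6 and 16.2 TPM in DMSO kidneys, with a slope of -0.30 ± 0.05 (SE, adjusted p = 0.00668). Both were lowest at the last 2 stages in each agent. Snora33, from the ribosomal protein gene Rps12, had 137, 126, 67.7 and 36.1 TPM in CPF kidneys, against 96.7, 83.2, 77.6 and 48.4 TPM in DMSO kidneys. Its slope was -0.24 ± 0.05 (SE, adjusted p = 0.0125).

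**Figure D2:**
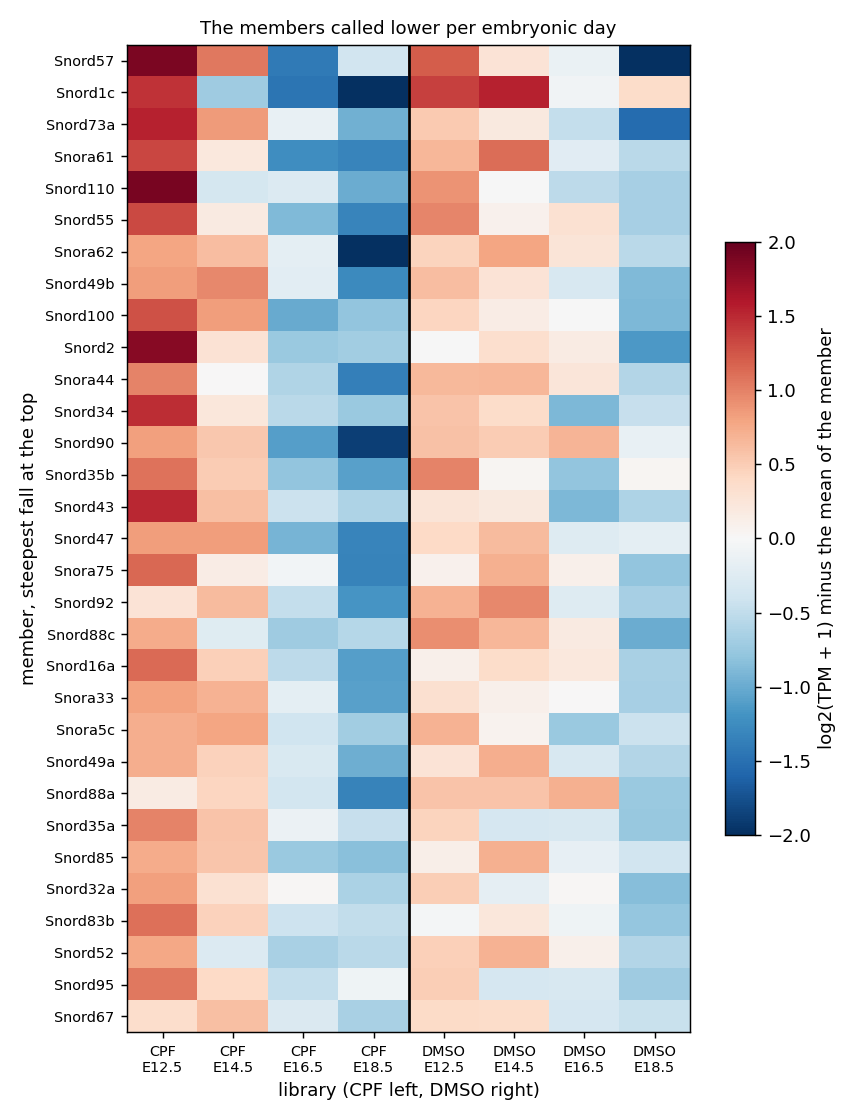
Log2(TPM + 1) of the 31 members called lower per embryonic day, minus the mean of the member, in 4 CPF libraries (left) and 4 DMSO libraries (right), steepest slope at the top. The highest of the 8 values is in the CPF library of E12.5 for 22 of the 31 members and the lowest in an E18.5 library for 26. Because the rows were chosen by their fall over these values, early highs and late lows follow in part from that choice. The rows run from Snord57 (-0.52 per day) to Snord67 (-0.18 per day).

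The 4 members of the host Rpl13a, known from mouse cells for a part in the response to lipid overload, were Snord32a, Snord33, Snord34 and Snord35a, and 3 of them fell. Snord32a had 69.3, 48.1, 39.5 and 24.8 TPM in CPF kidneys, against 55.3, 34.4, 39.5 and 21.2 TPM in DMSO kidneys, with a slope of -0.21 ± 0.04 (SE, adjusted p = 0.011). Snord34 had 63.6, 26.01, 14.9 and 12.9 TPM in CPF kidneys, against 33.4, 28.8, 11.4 and 15.9 TPM in DMSO kidneys, with a slope of -0.29 ± 0.06 (SE, adjusted p = 0.0149). Snord35a had 60.7, 44.8, 27.6 and 21.4 TPM in CPF kidneys, against 41.1, 23.5, 23.7 and 17.2 TPM in DMSO kidneys, with a slope of -0.22 ± 0.04 (SE, adjusted p = 0.00943), and its CPF value was the higher at all 4 stages. In CPF kidneys each of the 3 was lower at every later stage, and in DMSO kidneys each was highest at E12.5. The fourth, Snord33, lay at or below 2.43 TPM in all libraries, with a median of 1 read, and its slope was -0.12 ± 0.07 (SE, adjusted p = 0.27). Snord47 lies in Gas5, a noncoding host whose transcripts are known to build up when growth stops. It had 149.6, 149.7, 43.01 and 32.6 TPM in CPF kidneys, against 109, 129, 69.4 and 72.03 TPM in DMSO kidneys and a slope of -0.27 ± 0.07 (SE, adjusted p = 0.0345). Snord22, known from frog oocytes for a part in 18S ribosomal RNA maturation, lies in Snhg1 and had 479.9, 377, 132 and 132 TPM in CPF kidneys, against 196, 312, 222 and 214 TPM in DMSO kidneys. Its slope did not pass, at -0.18 ± 0.08 (SE, adjusted p = 0.152). Snord64, a C/D member of the imprinted Prader-Willi region, had 125, 138, 37.8 and 41.8 TPM in CPF kidneys, against 69.7, 96.2, 91.2 and 93.00 TPM in DMSO kidneys, with a slope of -0.13 ± 0.09 (SE, adjusted p = 0.336).

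Other abundant members did not pass either. Snord96a, from Rack1, lay just short of the threshold and had 406, 398, 200.3 and 131 TPM in CPF kidneys, against 265, 326, 241 and 209.9 TPM in DMSO kidneys, with a slope of -0.18 ± 0.05 (SE, adjusted p = 0.0508). Snord104 had 374, 312, 198 and 139 TPM in CPF kidneys, against 221, 411, 261 and 409 TPM in DMSO kidneys, with a slope of -0.07 ± 0.07 (SE, adjusted p = 0.542). Snora74a had 333, 489, 290.2 and 243 TPM in CPF kidneys, against 256, 615, 496 and 487 TPM in DMSO kidneys, with a slope of 0.01 ± 0.07 (SE, adjusted p = 0.947), and Scarna2 had 1578, 736, 1359 and 1049.5 TPM in CPF kidneys, against 1895, 1423, 1518 and 1235 TPM in DMSO kidneys, with a slope of -0.07 ± 0.06 (SE, adjusted p = 0.464). In these 3 the CPF value was highest at E12.5 or E14.5 and none passed.

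The 12 most abundant members, a number chosen after the values were seen, are set beside the other 94 as a description. Of the 12, only Snord2 was called, and their median slope was -0.03, against -0.18 in the other 94, of which 30 were called. Scarna10 had 3422, 5658, 3248 and 3585 TPM in CPF kidneys, against 1617, 3376, 3974 and 5401 TPM in DMSO kidneys, and its slope was 0.12 ± 0.07 (SE, adjusted p = 0.288). In DMSO kidneys it was highest at E18.5, and in CPF kidneys at E14.5. Snord17 had 1606, 1619.7, 1067 and 1122 TPM in CPF kidneys, against 1017, 1919, 1771 and 1891 TPM in DMSO kidneys, with a slope of 0.01 ± 0.06 (SE, adjusted p = 0.931). Snora23 had 414, 637, 271 and 294 TPM in CPF kidneys, against 322, 498, 445 and 624 TPM in DMSO kidneys, with a slope of -0.00 ± 0.07 (SE, adjusted p = 0.997). Scarna13 had 670.0, 1104, 432 and 358 TPM in CPF kidneys, against 479, 886, 769 and 959 TPM in DMSO kidneys, and its slope was -0.03 ± 0.08 (SE, adjusted p = 0.834). In all 4 the DMSO value of E18.5 was well above that of E12.5, and none of the 4 passed the test. In DMSO libraries alone, 9 of the 12 slopes were above 0, with a median of 0.11, beside 25.8% and -0.08 over all genes tested. In CPF libraries alone 0 of the 12 were above 0, with a median of -0.16, beside 55.2% and 0.02 over all genes. Each of these fits left 2 residual degrees of freedom. Over the other 94 the medians were -0.23 in CPF and -0.14 in DMSO libraries. Across the 106 members the slope followed mean TPM little (Spearman's rho 0.08, Pearson's r 0.06) and RefSeq length somewhat more (0.25 and 0.25), all from the same 8 libraries.

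Fitted within each agent, the members called overlapped in part with those called with both agents. Each such fit left 2 residual degrees of freedom, so a missed call does not show a different slope. The 4 CPF libraries alone, an alternative chosen after seeing the data, called 21 members lower, beside 0.885% of all genes, and 0 higher, beside 3.20%. The 4 DMSO libraries alone called 17 members lower, beside 12.6% of all genes, and 2 higher, beside 2.95%. The 2 that rose in DMSO were Scarna10 (0.27 per day, adjusted p = 0.0419) and Scarna6 (0.25 per day, adjusted p = 0.0412). Scarna6 had 348, 425, 174 and 215 TPM in CPF kidneys, against 146, 337, 301 and 476 TPM in DMSO kidneys. Of the 31 members called with both agents, 14 were among those of CPF alone and 12 among those of DMSO alone.

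The fall depended on stage range and on scale. Without the E18.5 pair 1 member was called lower, Snord35b, beside 0.110% of all genes, and the member median stayed at -0.16. Without the E14.5 and E16.5 pairs, whose CPF libraries stood apart, 9 members were lower, beside 1.81% of all genes, and 1 higher, beside 3.87%. This fit left 1 residual degree of freedom. The member called higher was Snord38a, a rare C/D member with 0, 1.62, 0 and 1.80 TPM in CPF kidneys, against 0, 0, 0 and 4.18 TPM in DMSO kidneys, listed at 0 in 5 libraries. At E18.5 it held 1 read in CPF and 4 in DMSO. It met the condition for a test partly through these 2 libraries, which favors a rise. The markers of erythroid cells and muscle given above fell over the same stages, and their part in the fall was not tested.

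Relative to the NR total, the sum of the TPM of all noncoding RefSeq transcripts, more members were called lower per day. The NR total took 26.3, 27.3, 26.9 and 26.1% of the TPM in CPF libraries over the 4 stages, against 24.9, 30.3, 36.8 and 46.7% in DMSO libraries. Rpph1 and Rmrp made up 73.3 to 81.8% of it in CPF and 77.9 to 89.6% in DMSO libraries. As a share of the NR total, C/D RNAs were at 3.57, 2.86, 1.57 and 1.58% in CPF libraries and 2.31, 2.63, 1.79 and 1.17% in DMSO libraries. H/ACA RNAs were at 1.31, 1.24, 0.667 and 0.554% in CPF libraries and 0.935, 1.05, 0.677 and 0.516% in DMSO libraries. On this scale both shares were lower at the last 2 stages than at the first 2 in each agent. Without Rpph1 and Rmrp in the total this held in CPF libraries and not in DMSO libraries: C/D RNAs were then at 13.4, 11.7, 8.22 and 8.66% in CPF libraries and 10.8, 11.9, 11.4 and 11.3% in DMSO libraries. H/ACA RNAs were then at 4.90, 5.08, 3.49 and 3.04% in CPF libraries and 4.39, 4.75, 4.31 and 4.97% in DMSO libraries. Per 1000000 TPM of coding (NM) transcripts the DMSO sums were likewise higher at E18.5 than at E12.5, with 7662 TPM at E12.5 and 10219 TPM at E18.5 for C/D and 3099 and 4512 TPM for H/ACA RNAs. Cajal body RNAs held 2.36, 2.96, 2.01 and 2.06% of the full NR total in CPF libraries and 1.76, 2.06, 1.83 and 1.75% in DMSO libraries. On this full total their CPF share was above the DMSO share at each stage. Without Rpph1 and Rmrp in the total they held 8.84, 12.2, 10.5 and 11.3% in CPF libraries and 8.26, 9.325, 11.6 and 16.9% in DMSO libraries. Their CPF share was then above the DMSO share at E12.5 and E14.5 and below it at E16.5 and E18.5. Relative to the full NR total, 51 of 106 members were called lower per day, beside 8.12% of all genes, and these included the 31. Relative to the NR total without Rpph1 and Rmrp 10 were called lower, beside 1.26% of all genes, and relative to the NM total, that of the coding transcripts, 18, beside 4.66%. The members called lower on all 4 scales were Snora44, Snora61, Snord100, Snord1c, Snord43, Snord49a, Snord49b, Snord55, Snord57 and Snord73a.

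**Figure D3:**
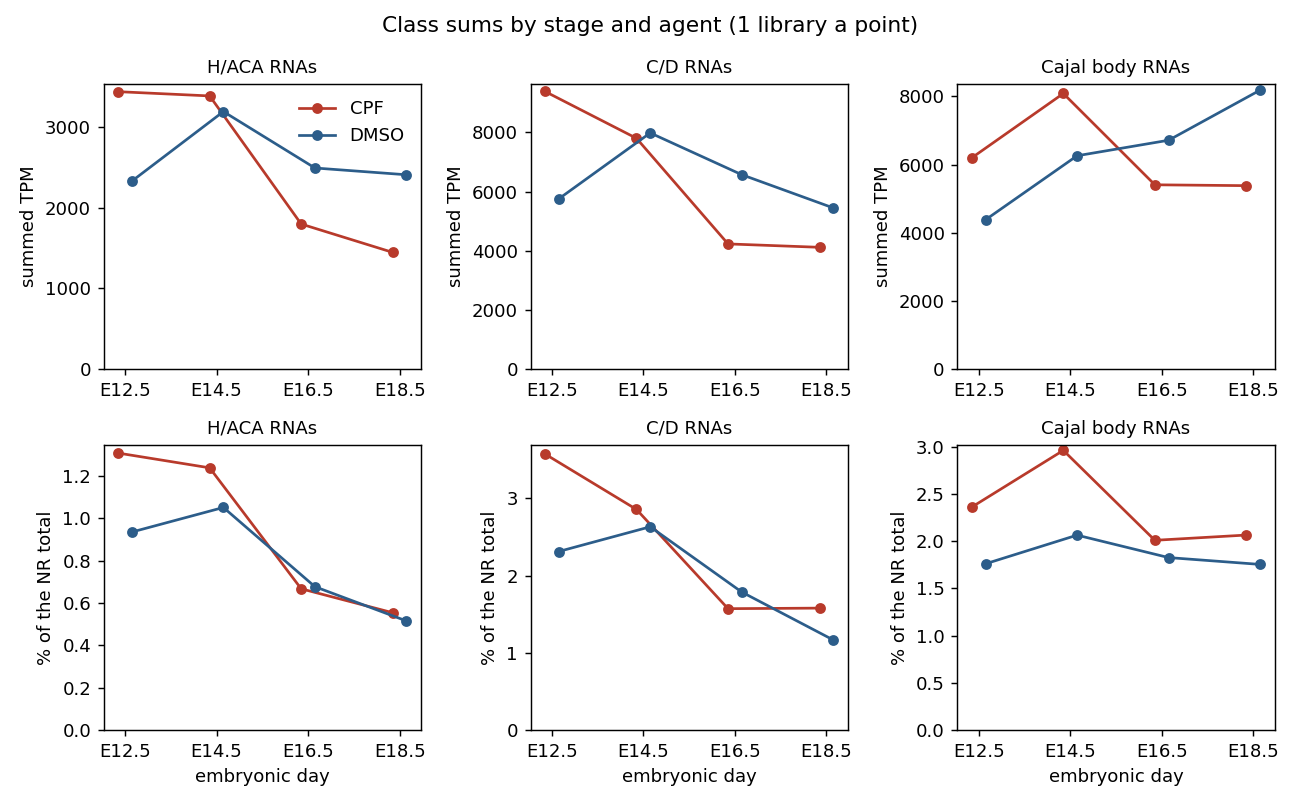
Summed TPM (top) and share of the NR total in % (bottom) of H/ACA, C/D and Cajal body RNAs by embryonic day, 1 library a point, CPF in red and DMSO in blue. In TPM the C/D sum is 9387 in CPF and 5755 in DMSO at E12.5 and 4119 in CPF and 5450 in DMSO at E18.5; as shares of the NR total the H/ACA RNAs are at 0.667% in CPF and 0.677% in DMSO at E16.5 and at 0.554% in CPF and 0.516% in DMSO at E18.5.

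The slope of each member was set beside that of its host gene. For 72 members the host was tested and has 1 RefSeq transcript; the median slope of these members was -0.18, against -0.11 over their 52 hosts. Of the 52 hosts, 16 were called lower, beside 6.72% of all genes, and 0 higher. Of the 24 fallen members with such a host, 11 had a host that was called lower and 13 one that did not pass. A slope below that of the host was found in 22 of the 24 and in 48 of all 72 members. The 24 were picked by their own fall in these libraries, which favors a slope below that of the host. Nop56, which encodes a core protein of C/D particles, fell with both of its members: its slope was -0.25 ± 0.04 (SE, adjusted p = 0.00343), beside -0.35 ± 0.07 (SE, adjusted p = 0.0145) for Snord110 and the value for Snord57 above. Rpl13a had a slope of -0.02 ± 0.05 (SE, adjusted p = 0.868) beside its 3 fallen members. The noncoding 2410006H16Rik, the host of Snord49b, had 0.03 ± 0.05 (SE, adjusted p = 0.778). In Nop58, which encodes the other core C/D protein of this kind, the gene fell, at -0.19 ± 0.04 (SE, adjusted p = 0.0243), while its members Snord11 and Snord70 had slopes of -0.04 and -0.09 and did not pass. Over the 72 members the slope of the host and of the member had a Spearman's rho of 0.26 and a Pearson's r of 0.28, a description in which both come from the same libraries and several members share a host.

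**Figure D4:**
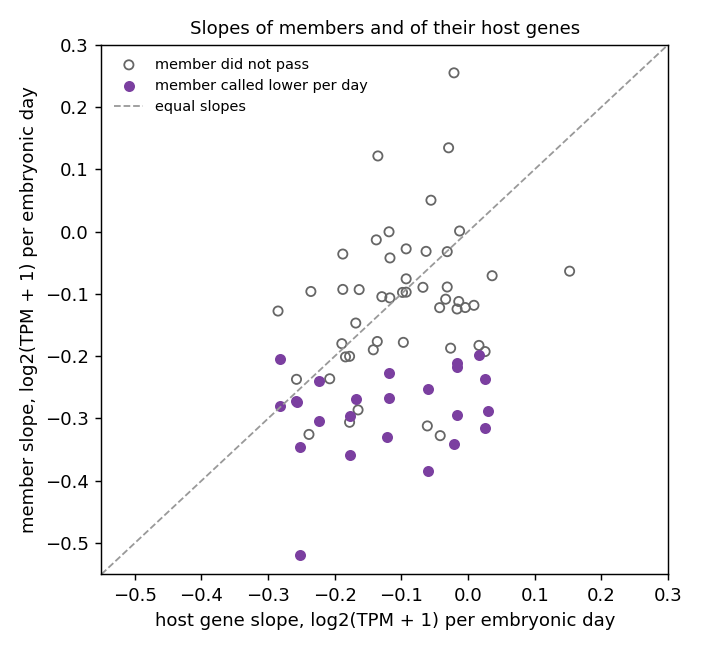
Slope per embryonic day, in log2(TPM + 1), of 72 members (y axis) against that of their host gene (x axis), with filled points for members called lower per day and a dashed line for equal slopes. Filled points, picked by their own fall, lie below the line for 22 of 24 members, and 48 of all 72 points lie below it. Several filled points sit at host slopes near 0.

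Members that share a host did not always receive the same call, and differences between their slopes were not tested. In Eif4a2, which encodes a helicase of translation initiation, Snord2 had 1089, 377, 184 and 190.2 TPM in CPF kidneys, against 306, 388, 345 and 139 TPM in DMSO kidneys, with a slope of -0.30 ± 0.08 (SE, adjusted p = 0.0366). Snora81 had 549, 408, 189.8 and 192 TPM in CPF kidneys, against 189, 331, 272 and 245 TPM in DMSO kidneys, with a slope of -0.12 ± 0.07 (SE, adjusted p = 0.288). Both were highest in the CPF library of E12.5, and in DMSO kidneys neither ran in 1 direction over the 4 stages. In Rps3, Snord15a, which in humans guides methylation of 28S ribosomal RNA, had 536, 643, 392 and 307 TPM in CPF kidneys, against 288, 544, 479 and 460.1 TPM in DMSO kidneys. Snord15b had 394, 406, 234 and 216 TPM in CPF kidneys, against 251, 480.2, 428 and 250.2 TPM in DMSO kidneys. Neither passed, with slopes of -0.03 and -0.09 and a host slope of -0.03. Of 31 members tested in hosts that encode ribosomal proteins 12 fell, with a median slope of -0.20, and of the other 75 members 19 fell, with a median of -0.13.

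Across the 4 stages no member differed between CPF and DMSO kidneys by the test. With stage as a factor, limma called 0 of 106 members, beside 0.154% of all genes tested called higher and 0.00731% called lower. At an unadjusted p under 0.05 there were 13 of 106 members, beside 9.55% of all genes in either direction. Of the 13 members, 4 were higher and 9 lower in CPF, and the share of all genes was not counted by direction. The median difference was -0.12 on the log2 scale over the members, against 0.15 over all genes tested. Relative to the NR total these were 0.21 over the members and 0.45 over all genes. Without Rpph1 and Rmrp in that total they were -0.17 and 0.11, and relative to the NM total -0.29 and -0.01. Of the 4 scales, the sign of the members' median thus turned only on the full NR total. Its place below that of all genes held on each. The smallest unadjusted p among members belonged to Snord111, a C/D member of Sf3b3 named after its values were seen. It had 20.8, 34.3, 15.4 and 8.29 TPM in CPF kidneys, against 40.9, 59.3, 39.5 and 24.1 TPM in DMSO kidneys. It was lower in CPF at all 4 stages, with a difference of -1.11 ± 0.24 (SE, adjusted p = 0.101) over the 4 pairs. Snord89, likewise named afterwards, had 22.8, 41.4, 13.9 and 21.3 TPM in CPF kidneys, against 38.9, 63.5, 38.3 and 49.6 TPM in DMSO kidneys, and differed by -0.98 ± 0.24 (SE, adjusted p = 0.138). Scarna17 had 9.92, 3.08, 3.98 and 6.85 TPM in CPF kidneys, against 13.2, 22.6, 6.62 and 12.9 TPM in DMSO kidneys, lower in CPF at all 4 stages, with a difference of -1.09 ± 0.36 (SE, adjusted p = 0.284), with a median of 6 reads. Snora28, an H/ACA member of Eif5, had 178, 149.5, 80.3 and 77.5 TPM in CPF kidneys, against 70.4, 68.04, 96.4 and 37.9 TPM in DMSO kidneys. It was higher in CPF at 3 of 4 stages, by 0.80 ± 0.26 (SE, adjusted p = 0.282). Snord73a, higher in CPF at all 4 stages, differed by 0.65 ± 0.24 (SE, adjusted p = 0.371).

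The share of members that were higher in CPF differed between stages. With 1 library for each agent these are descriptions of library pairs. At E12.5, 77 of 106 members were higher in CPF, beside 40.4% of all genes, with 15 at least 2-fold higher on the log2(TPM + 1) scale, beside 6.04%, and 3 at least 2-fold lower, beside 2.50%. At E14.5, 50 were higher, beside 52.6% of all genes, with 7 at least 2-fold higher, beside 6.18%, and 9 at least 2-fold lower, beside 2.16%. At E16.5, 28 were higher, beside 61.8% of all genes, with 2 at least 2-fold higher, beside 7.44%, and 23 at least 2-fold lower, beside 3.20%. At E18.5, 36 were higher, beside 82.4% of all genes, with 8 at least 2-fold higher, beside 20.4%, and 23 at least 2-fold lower, beside 2.02%. The median log2 ratio of CPF over DMSO was 0.33, 0.00, -0.35 and -0.52 for H/ACA and 0.32, -0.07, -0.66 and -0.21 for C/D members from E12.5 to E18.5. Over all genes tested it was -0.12, 0.03, 0.13 and 0.53. Scaled to the NR total, the ratio was 0.26, 0.14, 0.09 and 0.30 for H/ACA, 0.24, 0.07, -0.21 and 0.59 for C/D members and -0.19, 0.16, 0.53 and 1.25 over all genes. For C/D at E14.5 and E18.5 and for H/ACA at E16.5 and E18.5 the direction thus turned relative to the full NR total. That at E12.5 turned relative to the NR total without Rpph1 and Rmrp, at -0.04 for H/ACA, -0.05 for C/D members and -0.47 over all genes. On that scale the E16.5 and E18.5 medians were -0.19 and -0.50 for H/ACA, -0.49 and -0.19 for C/D members and 0.28 and 0.57 over all genes. Relative to the NM total they were -0.55 and -0.98, -0.86 and -0.68, and -0.05 and 0.14. The E12.5 medians on the NM scale were 0.36 for H/ACA and 0.35 for C/D members. On each of these scales the H/ACA and C/D medians were above that of all genes at E12.5 and below it at E16.5 and E18.5.

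**Figure D5:**
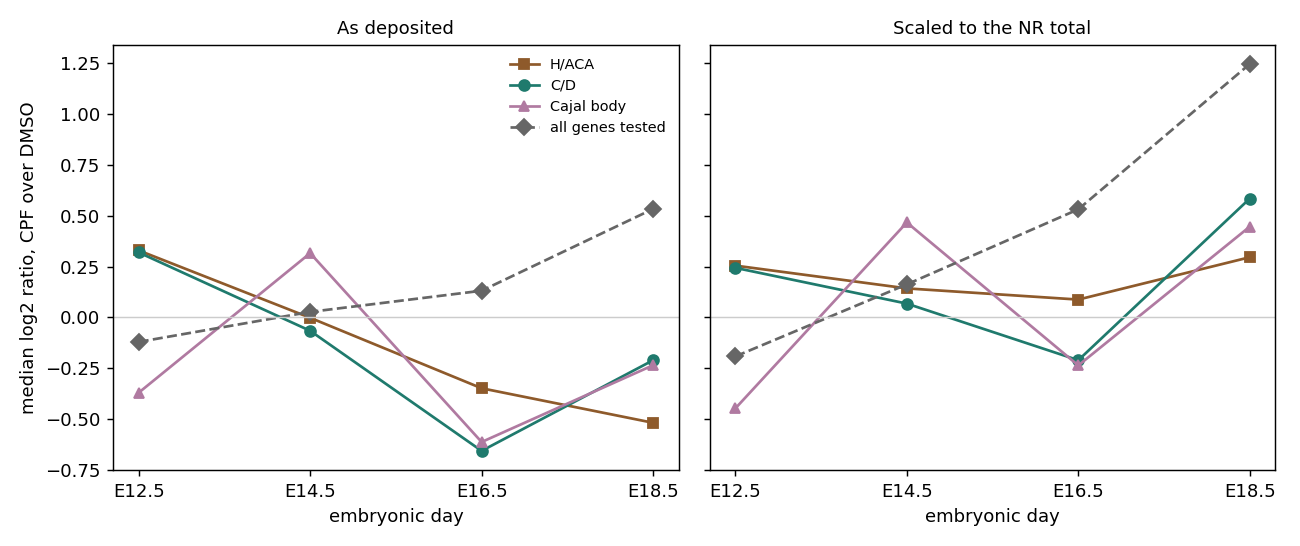
Median log2 ratio of CPF over DMSO at each embryonic day for H/ACA, C/D and Cajal body members and for all genes tested, as deposited (left) and scaled to the NR total (right), from 1 library for each agent and stage. As deposited, the H/ACA and C/D medians lie above all genes at E12.5 (0.33 and 0.32 against -0.12) and below them at E18.5 (-0.52 and -0.21 against 0.53).

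The summed TPM of the classes was compared in the same pairs. H/ACA RNAs summed to 3435, 3382, 1797 and 1446 TPM in CPF kidneys, against 2328, 3188, 2490.3 and 2406 TPM in DMSO kidneys over the 4 stages. C/D RNAs summed to 9387, 7803, 4234 and 4119 TPM in CPF kidneys, against 5755, 7984, 6573 and 5450 TPM in DMSO kidneys. Cajal body RNAs summed to 6200, 8087, 5408 and 5383 TPM in CPF kidneys, against 4382, 6260, 6715 and 8185 TPM in DMSO kidneys. Each CPF sum was above its DMSO counterpart at E12.5 and below it at E16.5 and E18.5. At E12.5 Scarna10 held 3422 of the 6200 TPM of Cajal body RNAs in CPF kidneys and 1617 of the 4382 TPM in DMSO kidneys, and 6 of the 9 members were lower in CPF. The median log2 ratio of the 9 was -0.37, 0.32, -0.61 and -0.23 over the 4 stages as deposited and -0.45, 0.47, -0.24 and 0.45 relative to the NR total. Averaged over the 4 pairs, the log2 ratio of the sums was -0.14 ± 0.58 for H/ACA, -0.09 ± 0.59 for C/D and -0.01 ± 0.53 for Cajal body RNAs (SD, n = 4 stage pairs), each smaller than its spread. Relative to the NR total the same averages were 0.20, 0.25 and 0.33, of the opposite sign.

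The widest ratios within a stage are given for members with a mean of at least 10 TPM over the 8 libraries; members below that level reached wider ones at some stages. At E12.5 the ratio was highest for Snora31 (2.00), Snord2 (1.83) and Snora81 (1.53), and lowest for Snora2b (-1.45), Snord61 (-1.34) and Snora52 (-0.96). Snora31, from Tpt1, had 156, 92.3, 28.4 and 21.6 TPM in CPF kidneys, against 38.4, 86.9, 44.9 and 34.4 TPM in DMSO kidneys, so its CPF value stood out at E12.5 alone. At E14.5 the highest were Snord1b (1.80), Snora70 (1.28) and Snora28 (1.12), and the lowest, before Snora20 (-1.73) and Snord42a (-1.66), was Snord68 (-2.87), a member of Rpl13 with 25.7, 3.998, 5.17 and 2.22 TPM in CPF kidneys, against 18.8, 35.6, 21.5 and 7.74 TPM in DMSO kidneys. Several of these ratios rest on few reads: at E14.5 Snord68 held 2 in CPF and 17 in DMSO, and Snord42a 3 and 10. At E16.5 the highest were Snord42a (1.93), Snora68 (0.98) and Snord8 (0.72), and the lowest were Snord19 (-3.20), Snord37 (-2.78) and Snora16a (-2.77). Snord42a then held 11 reads in CPF and 3 in DMSO, and Snord19, Snord37 and Snora16a held 6, 2 and 6 reads in CPF. Snord37, from Eef2, had 32.96, 32.5, 3.11 and 28.1 TPM in CPF kidneys, against 27.8, 32.2, 27.2 and 22.2 TPM in DMSO kidneys, and only the CPF library of E16.5 was low. Snord19, from the nucleostemin gene Gnl3, had 87.5, 58.5, 9.17 and 13.8 TPM in CPF kidneys, against 74.4, 102, 92.7 and 33.2 TPM in DMSO kidneys. At E18.5 the highest were Snord57 (2.11), on 1.96 TPM in DMSO kidneys, Snord8 (1.37) and Snord91a (1.19), and the lowest were Snord90 (-1.73), Snora68 (-1.71) and Snora70 (-1.67). Snord57 held 2 reads in that DMSO library, and Snord90, Snora68 and Snora70 held 2, 12 and 11 reads in the CPF library. Snora70, from Rpl10, had 115, 66.8, 39.2 and 8.97 TPM in CPF kidneys, against 47.8, 26.9, 31.01 and 30.8 TPM in DMSO kidneys.

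No member passed the test for a difference of slopes between CPF and DMSO kidneys. The test of the difference of slopes, CPF minus DMSO, called 0 of 106 members and 0.0% of all genes. At an unadjusted p under 0.05 there were 26 of 106 members, a share no larger than the 26.4% of all genes in either direction. Of the 26 members, 23 had the lower slope in CPF, and the share of all genes was not counted by direction. The median difference was -0.12 log2 units per day over the members and 0.11 over all genes tested. The smallest p belonged to Snora65, an H/ACA member of Rpl12 with 331, 278, 123 and 81.2 TPM in CPF kidneys, against 205, 207, 187 and 174 TPM in DMSO kidneys, at -0.32 ± 0.06 (SE, adjusted p = 0.132). Scarna9 ran the other way, with 159.8, 144, 176 and 155 TPM in CPF kidneys, against 212, 197, 112 and 93.2 TPM in DMSO kidneys, at 0.23 ± 0.06 (SE, adjusted p = 0.132). Relative to the NR total, 6 members had a higher and 1 a lower slope in CPF by the adjusted p, beside 45.7% and 0.190% of all genes; the total itself was higher at each later stage in DMSO libraries and between 26.1 and 27.3% in CPF libraries. The 6 were Scarna9, Snora30, Snora78, Snora7a, Snord118 and Snord4a, and the 1 was Snora70, of which Snora30, Snora78, Snora7a and Snord4a were named after their values were seen. Snord118 (U8), known from frogs for 28S ribosomal RNA maturation, had 23.4, 32.8, 20.7 and 34.00 TPM in CPF kidneys, against 41.2, 25.2, 15.6 and 22.6 TPM in DMSO kidneys.

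Of the genes for proteins of these particles, 10 fell. Of 22 listed core proteins and assembly factors 20 were tested, and 10 were called lower per embryonic day, beside 6.72% of all genes. The test called 0 higher, beside 5.79%, and all 20 slopes were below 0, where 37.7% of all genes had a slope above 0. The median was -0.13, against -0.03 over all genes. Fibrillarin (Fbl), the methyltransferase of C/D particles, had 13.2, 11.8, 12.04 and 6.45 TPM in CPF kidneys, against 29.1, 12.7, 11.1 and 8.39 TPM in DMSO kidneys, with a slope of -0.20 ± 0.05 (SE, adjusted p = 0.0398). Dyskerin (Dkc1), the pseudouridine synthase of H/ACA particles, had 136, 119.7, 97.7 and 68.2 TPM in CPF kidneys, against 143, 145, 107 and 64.9 TPM in DMSO kidneys, with a slope of -0.18 ± 0.04 (SE, adjusted p = 0.0143). Nop10, a small H/ACA protein, had 198, 283, 181 and 169 TPM in CPF kidneys, against 148, 307, 199 and 206 TPM in DMSO kidneys, and its slope was -0.01 ± 0.06 (SE, adjusted p = 0.905). Coil, the scaffold protein of Cajal bodies, fell, at -0.15 ± 0.04 (SE, adjusted p = 0.0406), as did Tgs1, which modifies the caps of small RNAs, at -0.21 ± 0.04 (SE, adjusted p = 0.00909). By agent, 0 of the 20 were called, beside the same shares of all genes as for the members, with a median difference of -0.03, against 0.15 over all genes.

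Of 21 listed noncoding host genes 19 were tested, and Gas5, Meg3, Rian and Mirg were called lower per day, beside 6.72% of all genes, with 0 higher, beside 5.79%. The median slope of the 19 was -0.11, against -0.03 over all genes tested. No member studied here lies in Meg3, Rian or Mirg, so of the genes called only Gas5 is the host of a member. Gas5 had 441, 428, 135 and 128 TPM in CPF kidneys, against 265, 373, 229 and 146 TPM in DMSO kidneys, with a slope of -0.26 ± 0.06 (SE, adjusted p = 0.0313). Rian, an imprinted host of C/D snoRNAs, had 358, 426, 236 and 46.4 TPM in CPF kidneys, against 162, 273, 131 and 57.2 TPM in DMSO kidneys, with a slope of -0.38 ± 0.10 (SE, adjusted p = 0.0435). Snhg1 had 1275, 971, 403 and 282 TPM in CPF kidneys, against 448, 760.2, 510.1 and 537 TPM in DMSO kidneys, with a slope of -0.19 ± 0.08 (SE, adjusted p = 0.153). Snhg18 ran the other way without passing, with 21.99, 26.8, 38.7 and 61.6 TPM in CPF kidneys, against 24.4, 23.4, 28.7 and 30.7 TPM in DMSO kidneys, at 0.15 ± 0.05 (SE, adjusted p = 0.0582). By agent 0 of the 19 were called, beside 0.154% of all genes called higher and 0.00731% lower.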

How the data were processed

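RNA from 8 kidney libraries, with 2 μg of input per library per the labels' protocols, was sequenced on Illumina instruments. Trimmomatic, STAR and mm10 are named in the submitters' processing notes. Versions, the way reads were counted and the use of strand were not given in the sources used here. Deposited were TPM values for 32862 RefSeq transcripts, 4339 of them noncoding (NR), made by the authors. These were summed per symbol into 24151 genes after 52 symbols listed as dates were restored from their RefSeq identifiers. The members and gene lists were chosen with earlier results of these data known. TPM keeps no depth directly, but low values were whole multiples of 1 step in each library once multiplied by the RefSeq length less 1 base: 91.4 to 94.2% of low miRNA gene values were whole within 0.02, and this step was taken as 1 read. Count models were not used.

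Log2(TPM + 1) was tested with limma 3.58.1 in R 4.3.3 (trend, robust), for genes that reached 1 TPM in 2 or more libraries; on this scale the change of a low gene comes out too small. Agent was tested with stage as a factor (3 residual degrees of freedom), embryonic day with agent as a covariate (5) and their interaction (4). With 1 library per agent and stage, the spread behind the p-values is that between stages or around a line, not between animals. The procedure was tested on simulated data. Members named were the 6 highest of each class by mean, called members up to 10 each way by p, the 3 highest and 3 lowest ratios of each stage among those with a mean of at least 10 TPM, those in Gas5, Snhg1, Rpl13a and Rian, and a fixed set including Snord22, Snord64 and Snord118. Snord1c, Snord11, Snord35b, Snord38a, Snord49a, Snord67, Snord70, Snord100 and Snord110 were named after their values were seen. Hosts and sequences are from GENCODE M21 (GRCm38, which mm10 names), in which 117 of 119 members had a sequence and 113 a host; some details of a host gene are not reported here. Alternatives were 4 scales, quantile normalization, other pseudocounts and filters, other stage terms, each agent alone, and each stage pair left out.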

Additional observations from a re-analysis of the deposited data

Results flagged for a closer look

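In each agent the 4 libraries of the class sums and named members, 112 groups in all, were searched for 1 library far from the other 3, and 7 groups held one; chance alone marks about 1 in 20 groups, and the 4 libraries of a group are different stages. In CPF kidneys Scarna10 was at 5658 TPM at E14.5, against 3248 to 3585 TPM at the other stages. In CPF kidneys Snord37 was at 3.11 TPM (2 reads) at E16.5, against 28.1 to 33.0 TPM. Snord61, from Rbmx, was at 24.6 TPM (16 reads) in the CPF library of E14.5, against 5.14 to 8.26 TPM (3 to 6 reads) in the others. Snord68 was at 25.7 TPM (12 reads) in the CPF library of E12.5, against 2.22 to 5.17 TPM (1 to 3 reads) in the others. Snord33 was at 1.24 TPM (1 read) in CPF at E12.5 and listed at 0 in the other CPF libraries. In DMSO kidneys it was at 2.43 TPM (2 reads) at E14.5, against 0.749 to 0.993 TPM (1 read each). In DMSO kidneys Snord17 was at 1017 TPM at E12.5, against 1771 to 1919 TPM at the later stages.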

How the results depend on the processing

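The median slope of the members stayed below 0 under each alternative, while the number called, 31 of 106 as deposited, changed. It was 51 relative to the NR total, 10 without Rpph1 and Rmrp in that total, 18 relative to the NM total, 14 after quantile normalization, 4 with no filter on low values, and 10 without the E14.5 and E16.5 pairs (9 lower and 1 higher). It was 19 in DMSO libraries alone (17 lower and 2 higher). Leaving out 1 stage pair at a time gave 1 to 25, with 1 where the E18.5 pair was left out and 16 without E12.5. The other settings tried, pseudocounts of 0.1 and 10, the stricter filter, stage as a factor and CPF libraries alone, gave 33, 27, 42, 26 and 21. The cause was not tested. For CPF against DMSO the count was 0 as deposited. It was 1 relative to the NR total without Rpph1 and Rmrp (Snord1c, -1.72, adjusted p = 0.0469) and 1 with at least 5 TPM in at least 4 libraries (Snord111, -1.11, adjusted p = 0.0256). Leaving out 1 pair gave 0 to 2: Snord1c and Snord68 without E12.5, and Snord19 without E14.5. The difference of slopes gave 0 members as deposited and 7 relative to the NR total. Averaged over the stage pairs, the class medians and ratios of sums of CPF over DMSO moved by less than 1 SD under each alternative run. All were below 0 as deposited and above 0 relative to the NR total, and some also turned sign without the E16.5 pair (C/D median 0.01, C/D sum 0.09, Cajal body sum 0.09) or without the E18.5 pair (sums of 0.06 for H/ACA, 0.01 for C/D and 0.19 for Cajal body RNAs). CPF and DMSO libraries were paired by stage in the test of agent; the labels give no replicate numbers, so no other paired analysis was run.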
